A study of Mus musculus with 52 samples.

Results

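T cell receptor variable (V) segments were chosen by symbol, as the genes whose name begins with Trav or Trbv followed by a digit. There were 165 such genes among the 57010 of the deposited table, 130 of the alpha chain (Trav) and 35 of the beta chain (Trbv). The quantities examined were the share of each segment within the counts of its own chain, in percent, and the evenness of those shares in each library. The rule uses no measured value, but the segments were taken up with earlier results of these data known.

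Each maturing T cell cuts and joins its receptor genes, so that one V segment of the alpha locus and one of the beta locus end up beside a joining segment (in the beta chain with a diversity segment between them) and are transcribed with the constant region. The V segment gives most of the receptor surface apart from the junction, and the daughters of one T cell carry the same pair of segments. RNA of a mixed population of T cells therefore spreads over many segments, and a few abundant clones raise the share of the segments they use. Bulk RNA gives the use of segments only: it holds neither the junctions that define a clone nor the pairing of an alpha with a beta chain.

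The libraries came from hCD40tg mice, which carry human CD40, and all of the mice bore MC38-CEACAM5 tumors, a mouse colon carcinoma line that expresses the tumor antigen CEACAM5. The mice received ATOR-4066, an antibody that binds both CD40 and CEACAM5, or CD40 mAb, which binds CD40 alone, or Vehicle. CD40 is an activating receptor of antigen-presenting cells and B cells. The sources used here give no strain background, age, dose or sampling time. RNA was sequenced from CD45+Ly6G- cells sorted from tumors (3 ATOR-4066, 3 CD40 mAb and 4 Vehicle libraries used), whole tumor (4, 5 and 4), lymph node (5, 4 and 4) and blood (4, 5 and 5), in that order of treatments.

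Of 52 libraries, 50 were used. The library labelled tumor ATOR-4066 3 and the library labelled lymph Vehicle 3 were left out by the rule, and the receptor RNA of each stood apart in some measures from that of its labelled material. The Trbv shares of the library labelled tumor ATOR-4066 3 overlapped those of lymph node libraries by 88.7 to 91.5 percent (median 89.9) and those of tumor libraries by a median of 72.7 percent. Its Trbv counts per Trav count, 1.98, lay below the 2.25 to 2.68 of lymph node libraries and close to the 1.57 to 1.95 of ATOR-4066 tumors. The library labelled lymph Vehicle 3 held 271 Trbv counts, against 5636 to 25340 in the lymph node libraries used, and overlapped them by a median of 70.2 percent. Overlap falls where libraries hold few counts, as this library and most tumors do, and the part of depth in these values was not tested. Levels are given as CPM, counts scaled to the same library total. The library tumor CD40 mAb 5 was kept but stood apart, with 131 CPM of Cd3e, a signalling chain of the receptor, against 2.60 to 24.6 CPM in the other tumor libraries, and 33.8 CPM of the epithelial gene Epcam. In the sorted cells, ATOR-4066 9 held 109.5 CPM of the B cell gene Cd79a, against 0.290 to 4.84 CPM in the other 9, and 35.4 CPM of the macrophage gene Adgre1, against 162 to 612 CPM. Sorted ATOR-4066 6 held 2356 CPM of the beta globin gene Hbb-bs of red blood cells, against 13.4 to 116 CPM in the other 9.

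Total counts per library ranged from 30.2 to 47.4 M in sorted cells, 47.4 to 64.2 M in tumor, 46.3 to 138.5 M in lymph node and 33.5 to 44.1 M in blood. The receptor segments took a small part of them. A lymph node library held 5636 to 25340 Trbv counts and 2129 to 10225 Trav counts, and a sorted library 622 to 11051 and 555 to 8278. Of the tumor libraries, 12 of 13 passed a minimum of 100 counts per chain, with 137 to 4128 Trbv counts and 108 to 1932 Trav counts. In blood, 13 libraries passed for Trbv, with 101 to 739 counts, and 8 for Trav, with 103 to 296 counts, none of them from CD40 mAb mice.

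The beta locus lies at chr6:40891229-41558452 and the alpha locus at chr14:52427928-53977678 (GRCm38, from GENCODE vM21). In that annotation 22 of the 35 Trbv genes and 110 of the 130 Trav genes are functional V genes and the others are pseudogenes. A count was found in any library used for 28 Trbv and 119 Trav segments. Pseudogenes took at most 1.21 percent of the Trbv counts and 2.47 percent of the Trav counts of a library that passed the minimum.

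The loci differ in how well short reads can tell their members apart. No Trbv segment has an identical partner, and the median identity of a Trbv segment with its nearest relative is 66.9 percent. The mouse alpha locus carries duplicated blocks, whose copies bear a d or an n in their symbol: 36 Trav segments form 18 pairs with identical transcripts, and 111 Trav segments share at least 95 percent of their bases with another. In 15 of the 18 pairs each copy took all the counts of the pair in at least 1 lymph node library. For Trav14d-1 and Trav14n-1, with 2162 counts over the 13 lymph node libraries, Trav14d-1 took all of them in 3 libraries, Trav14n-1 in 9, and both were counted in 1. Such counting also occurred outside these pairs: Trav7-2 and Trav7d-2 were never both counted in a library, nor were Trav12d-3 and Trav12n-3. These were not summed. Values of single Trav segments with a close copy are therefore uncertain, and beta segments carry most of the results below.

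The ends of the V exons show this contrast. For the 3 members of the Trbv13 family, which led many libraries, the last 90 bases of the exon on the plus strand are printed 5′ to 3′, with capitals at the 22 positions where the members differ. They lie at chr6:41116379-41116468, chr6:41121743-41121832 and chr6:41130496-41130585 (GRCm38).
Trbv13-1: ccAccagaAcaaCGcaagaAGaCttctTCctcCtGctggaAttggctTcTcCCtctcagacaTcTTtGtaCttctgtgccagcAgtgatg
Trbv13-2: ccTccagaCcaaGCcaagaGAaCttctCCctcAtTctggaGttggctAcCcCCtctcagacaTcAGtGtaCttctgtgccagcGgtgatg
Trbv13-3: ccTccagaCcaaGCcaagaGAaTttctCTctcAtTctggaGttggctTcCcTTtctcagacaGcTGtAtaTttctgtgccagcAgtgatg

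Trbv13-1 differs from Trbv13-2 at 15 of these positions and from Trbv13-3 at 19, and Trbv13-2 differs from Trbv13-3 at 10. The same stretch of 3 Trav14 members (chr14:52856077-52856166, chr14:53167089-53167178 and chr14:53554469-53554558) differs at 3 positions, in capitals, and at none between the d and n copies.
Trav14d-1: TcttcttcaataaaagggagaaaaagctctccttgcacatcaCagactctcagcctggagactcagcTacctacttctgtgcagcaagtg
Trav14n-1: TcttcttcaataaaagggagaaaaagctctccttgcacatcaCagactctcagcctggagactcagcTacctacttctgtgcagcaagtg
Trav14-1: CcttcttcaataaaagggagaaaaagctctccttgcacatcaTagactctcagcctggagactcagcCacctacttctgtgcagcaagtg

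Trbv3, which took most counts in nearly all lymph node libraries when counts are not divided by length, and Trbv16 and Trbv5, whose shares in sorted ATOR-4066 libraries all lay below those in Vehicle, are shown for the same stretch (chr6:41048739-41048828, chr6:41152141-41152230 and chr6:41062714-41062803). Capitals mark the last TGT, the codon of the conserved cysteine with which the third hypervariable loop begins. A TGT stood in the last 24 bases of the exon in 22 of 22 functional Trbv segments and 105 of 110 functional Trav segments.
Trbv3: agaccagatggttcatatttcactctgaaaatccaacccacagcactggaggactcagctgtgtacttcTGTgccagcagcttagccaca
Trbv16: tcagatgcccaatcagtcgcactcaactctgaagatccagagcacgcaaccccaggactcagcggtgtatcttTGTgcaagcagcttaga
Trbv5: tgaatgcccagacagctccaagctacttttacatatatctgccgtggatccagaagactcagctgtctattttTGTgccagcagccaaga

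Lymph node, which holds T cells of many clones, had more even use of segments than sorted cells and tumor. In the Vehicle libraries, with each segment's counts divided by its exon length, the 6 highest beta segments were Trbv13-2 with 8.49 ± 0.456 percent, Trbv3 with 8.38 ± 0.325, Trbv13-1 with 8.23 ± 0.622, Trbv13-3 with 6.88 ± 0.645, Trbv16 with 6.43 ± 0.560 and Trbv29 with 6.28 ± 0.618 percent (SD, n = 4). The first 3 did not differ beyond their spread, nor did the last 3. The alpha chain was spread more widely: the identical pair Trav14d-1 and Trav14n-1 together led with 4.65 ± 0.226 percent per length. It was followed by Trav7d-2 with 3.27 ± 0.569, the pair Trav3d-3 and Trav3n-3 with 3.18 ± 0.387, the pair Trav6-6 and Trav6d-6 with 3.01 ± 0.832, Trav12-2 with 2.86 ± 0.274 and Trav14-2 with 2.36 ± 0.232 percent per length. Of these, neighbours in the order lay within each other's spread from Trav7d-2 to Trav12-2.

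Beta segment use was nearly the same in all lymph nodes. Not divided by length, Trbv3 took 8.54, 9.72 and 11.1 percent of the Trbv counts (lowest, median and highest of 13 libraries), Trbv13-1 6.79, 7.42 and 10 percent, and Trbv16 5.78, 6.66 and 7.15 percent. Trbv3 was the leading segment in 12 of 13 libraries and Trbv13-1 in 1. Over the 19 Trbv segments with a mean share of at least 1 percent, the median coefficient of variation of a share was 9.49 percent in lymph node, against 34.0 percent in blood, 55.7 percent in sorted cells and 59.7 percent in tumor. The 9.49 percent includes all 3 treatments. Counting error adds more to these values where libraries are shallow, as in blood and most tumors, and its part was not tested.

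**Figure D1:**
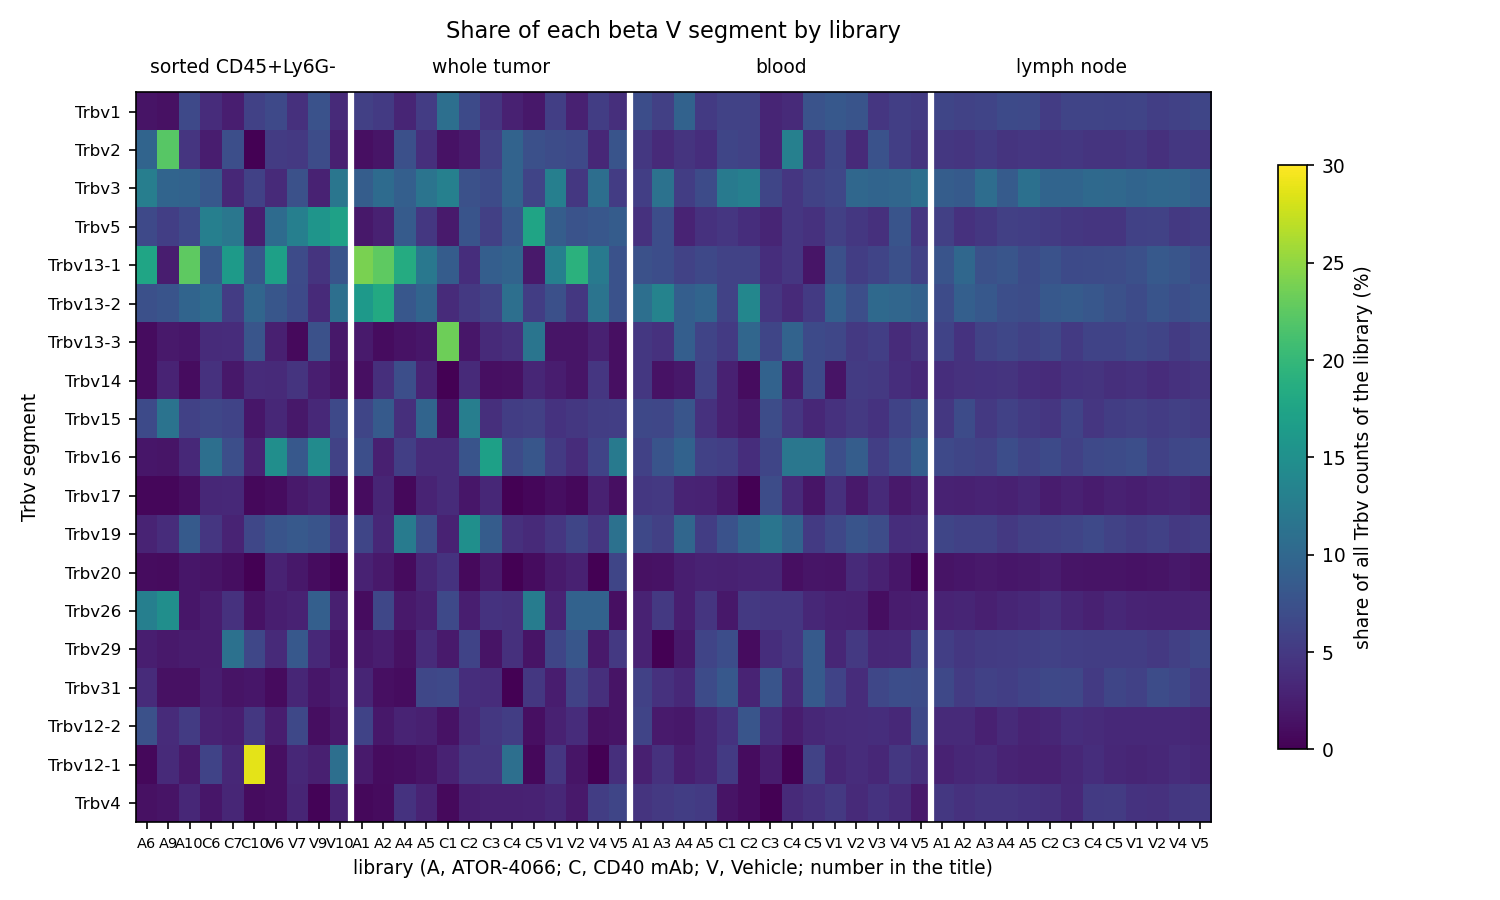
Share of the Trbv counts, in percent of the chain (colour, 0 to 30 percent), for the 19 segments with a mean share of at least 1 percent (rows) in each library used (columns, by material and treatment, with libraries under 100 counts included). Lymph node columns look alike, and single segments stand out in sorted and tumor columns, such as Trbv12-1 with 28.8 percent in sorted CD40 mAb 10 and Trbv13-3 with 23.4 percent in tumor CD40 mAb 1.

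In tumors, the leading segments and their shares differed between libraries. Trbv13-1 took 24 percent in whole tumor ATOR-4066 1 and Trbv13-3 took 23.4 percent in whole tumor CD40 mAb 1. The highest share of each chain was in sorted cells. In CD40 mAb 10, Trbv12-1 took 28.8 percent of 622 Trbv counts (95% Wilson interval 25.4 to 32.5), while its share in lymph node was 2.72 to 3.89 percent. In the alpha chain of the same library, Trav10 took 25.8 percent (22.3 to 29.6) and Trav14-1 took 24.5 percent of 555 counts. These segments stood apart from their own group as well, since Trav14-1 took 0.488 to 3.26 percent in the other 9 sorted libraries. In ATOR-4066 9, Trbv2 took 22.2 percent (21.5 to 23.0) and Trbv26 14.8 percent of the Trbv counts, Trav7-5 took 23.0 percent (22.1 to 23.9) and Trav6-5 18.1 percent of the Trav counts. In ATOR-4066 10, Trbv13-1 took 22.5 percent (21.4 to 23.7). Such intervals cover counting error only, since reads are not independent molecules.

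The leading segments varied most in the alpha chain. In 10 sorted libraries 9 different Trav segments led, in 12 tumor libraries 7, in 8 blood libraries 8, and in 13 lymph node libraries 3, with identical pairs summed. Trav7-2, which led sorted Vehicle 10 with 117 counts, and Trav7d-2, which led 2 sorted libraries, were counted here as different segments. They were never both counted in a library, so the division of reads may have raised the number of leaders. This was not tested. The leading Trav segment had 5 to 15 counts in the blood libraries and 81 to 548 in lymph node, so that the order of segments in blood is poorly fixed at this depth. In sorted ATOR-4066 10 and in blood ATOR-4066 4 the leading Trav segment was tied with the next. The beta chain had fewer leaders: in sorted cells Trbv13-1 led in 4 libraries, Trbv5 in 4 (3 of them Vehicle), and Trbv2 and Trbv12-1 in 1 each. In whole tumor Trbv13-1 led in 7 of 12, made up of 4 of 4 ATOR-4066, 0 of 4 CD40 mAb and 3 of 4 Vehicle libraries, although in Vehicle 1 it was tied with Trbv3 at 70 counts each. The 4 CD40 mAb tumors were led by 4 different segments, Trbv13-3 with 23.4 percent, Trbv19 with 14.9, Trbv16 with 17.1 and Trbv5 with 17.5 percent. In blood Trbv13-2 led in 7 of 13 libraries, Trbv3 in 3, Trbv19 in 2 and Trbv16 in 1. In blood Vehicle 4, counted for Trbv13-2, it was tied with Trbv3 at 43 counts each.

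The same pattern was seen as the overlap of the shares of library pairs, which is the sum over segments of the smaller of both shares. With all libraries thinned to 622 Trbv counts, 45 pairs of sorted libraries overlapped by 45.7 to 81.8 percent (median 62.6), and 78 pairs of lymph node libraries by 87.1 to 90.5 percent (median 89.5). Thinned to 100 counts, the median overlap was 59.1 percent in sorted cells, 63.7 percent in tumor, 73.6 percent in blood and 75.8 percent in lymph node. For Trav at 555 counts the medians were 38.7 percent in sorted cells and 76.5 percent in lymph node. Sorted pairs of the same treatment overlapped by a median of 70.0 percent of Trbv use at 622 counts and pairs of different treatments by 62.3 percent, with wide ranges of 52.3 to 74.2 and 45.7 to 81.8 percent. Pairs share libraries, so these are descriptions.

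Evenness is the Shannon entropy of the shares of a chain divided by its largest possible value for 28 Trbv or 119 Trav segments, so that 1 means equal use of all of them. The effective number is the number of equally used segments with the same entropy. Both are scores over the segments, described by level and spread with no p. In lymph node the Trbv evenness was 0.873 ± 0.002 with ATOR-4066 (n = 5), 0.874 ± 0.002 with CD40 mAb (n = 4) and 0.873 ± 0.003 with Vehicle (n = 4), SD in each case, with effective numbers of 18.1 to 18.5. In sorted cells and tumor the Trbv evenness of every library was below the lowest lymph node value of 0.870. In blood it was below in 12 of 13 libraries, at far fewer counts, with 0.882 in the other.

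In sorted tumor cells, Trbv evenness was 0.769, 0.756 and 0.791 in ATOR-4066 6, 9 and 10, 0.838, 0.821 and 0.733 in CD40 mAb 6, 7 and 10, and 0.799, 0.845, 0.802 and 0.790 in Vehicle 6, 7, 9 and 10. The ATOR-4066 and Vehicle libraries met at 0.791 and 0.790, so the groups overlapped by a single pair of libraries. The means were 0.772 ± 0.017 with ATOR-4066 (n = 3), 0.797 ± 0.056 with CD40 mAb (n = 3) and 0.809 ± 0.024 with Vehicle (n = 4). The ATOR-4066 mean lay 0.037 under the Vehicle mean, which is more than the pooled SD of 0.022, and the mean effective numbers were 13.1 with ATOR-4066 and 14.9 with Vehicle. The other sorted differences were within the pooled SD.

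Trav evenness in sorted cells was 0.761, 0.664 and 0.841 in ATOR-4066 6, 9 and 10, 0.787, 0.772 and 0.554 in CD40 mAb 6, 7 and 10, and 0.821, 0.748, 0.802 and 0.751 in Vehicle 6, 7, 9 and 10. The lowest values were those of ATOR-4066 9 and CD40 mAb 10, the libraries with the dominant pairs of segments above, and the groups overlapped throughout. In CD40 mAb 10 the effective number of Trav segments was 14.1, against 23.8 to 55.5 in the other 9.

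In whole tumor, Trbv evenness was 0.750, 0.752, 0.783 and 0.843 in ATOR-4066 1, 2, 4 and 5, 0.754, 0.822, 0.833 and 0.799 in CD40 mAb 1, 2, 3 and 5, and 0.841, 0.821, 0.805 and 0.824 in Vehicle 1, 2, 4 and 5. The ATOR-4066 values were below all Vehicle values in 3 of 4 libraries and above all of them in the other. The mean was 0.782 ± 0.043 with ATOR-4066, 0.802 ± 0.035 with CD40 mAb and 0.823 ± 0.015 with Vehicle (n = 4 each), and the ATOR-4066 mean lay 0.041 under Vehicle with a pooled SD of 0.032. Trav evenness averaged 0.767 ± 0.028 with ATOR-4066, 0.782 ± 0.045 with CD40 mAb and 0.794 ± 0.017 with Vehicle, a difference between ATOR-4066 and Vehicle of -0.027 with a pooled SD of 0.023. With the library labelled tumor ATOR-4066 3 kept, these differences were -0.026 for Trbv and -0.005 for Trav, both within the pooled SD.

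Blood did not separate the treatments either. Trbv evenness was 0.854 ± 0.024 with ATOR-4066 (n = 4), 0.846 ± 0.022 with CD40 mAb (n = 4) and 0.862 ± 0.009 with Vehicle (n = 5). In lymph node the Trav evenness was 0.878 with ATOR-4066, 0.878 with CD40 mAb and 0.873 with Vehicle, and the ATOR-4066 minus Vehicle difference of 0.006 compares with a pooled SD of 0.005. In all 22 differences between treatments that could be formed over materials and chains, the groups overlapped.

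**Figure D2:**
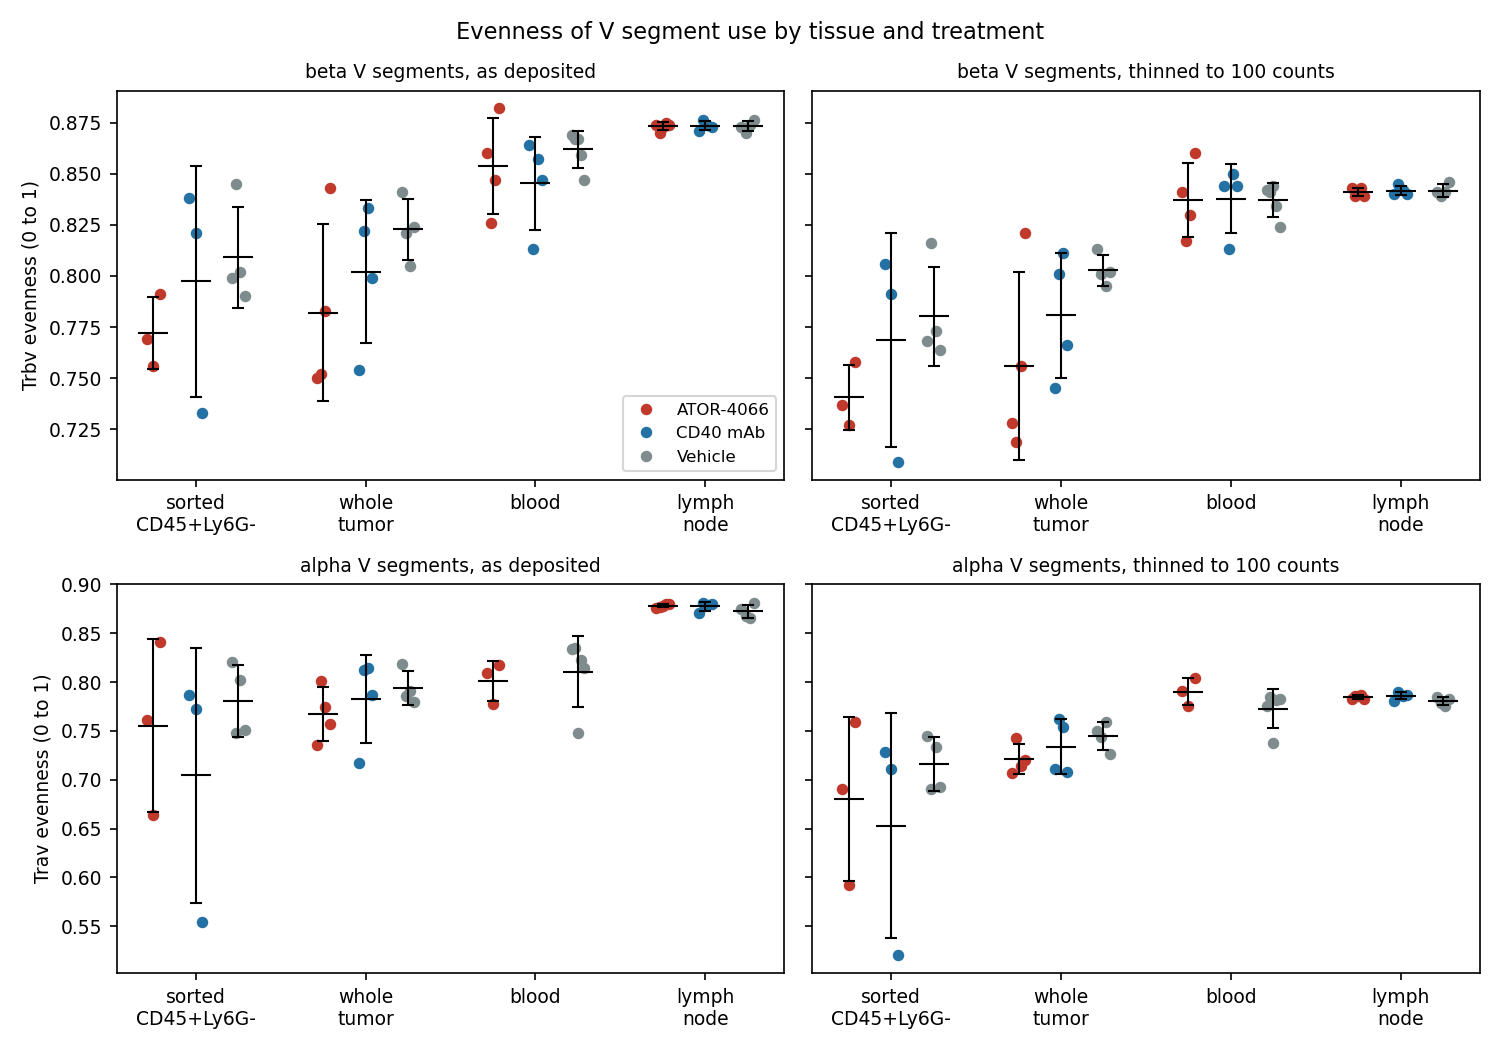
Evenness of Trbv use (upper panels) and Trav use (lower panels) as deposited (left) and thinned to 100 counts (right), by material and treatment. Points are libraries with at least 100 counts of the chain and bars are the mean with SD, and at 100 counts all sorted and tumor points lie below the lowest lymph node point (0.839 for Trbv and 0.775 for Trav).

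Evenness rises with the number of counts, so libraries were also compared at 100 counts per chain. At that depth the lowest lymph node library had an evenness of 0.839 for Trbv and 0.775 for Trav. All 10 sorted libraries and all 12 tumor libraries lay below it in both chains, with Trbv values of 0.709 to 0.816 in sorted cells and 0.719 to 0.821 in tumor. In blood 5 of 13 libraries lay below it for Trbv and 1 of 8 for Trav. The lower evenness in tumor was thus present under each treatment, Vehicle included.

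Tumor, lymph node and blood libraries with the same number in their titles were read as coming from the same animal, which the labels do not state. At 100 counts the tumor was less even than the lymph node in 11 of 11 such animals for Trbv, by 0.058 ± 0.035 (SD), and in 11 of 11 for Trav, by 0.048 ± 0.022. It was less even than blood in 11 of 11 for Trbv, by 0.053 ± 0.033, and in 7 of 7 for Trav, by 0.054 ± 0.025. Blood and lymph node differed by -0.005 ± 0.015 for Trbv, lower in blood in 6 of 11 animals, and by 0.003 ± 0.011 for Trav, lower in blood in 3 of 7.

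**Figure D3:**
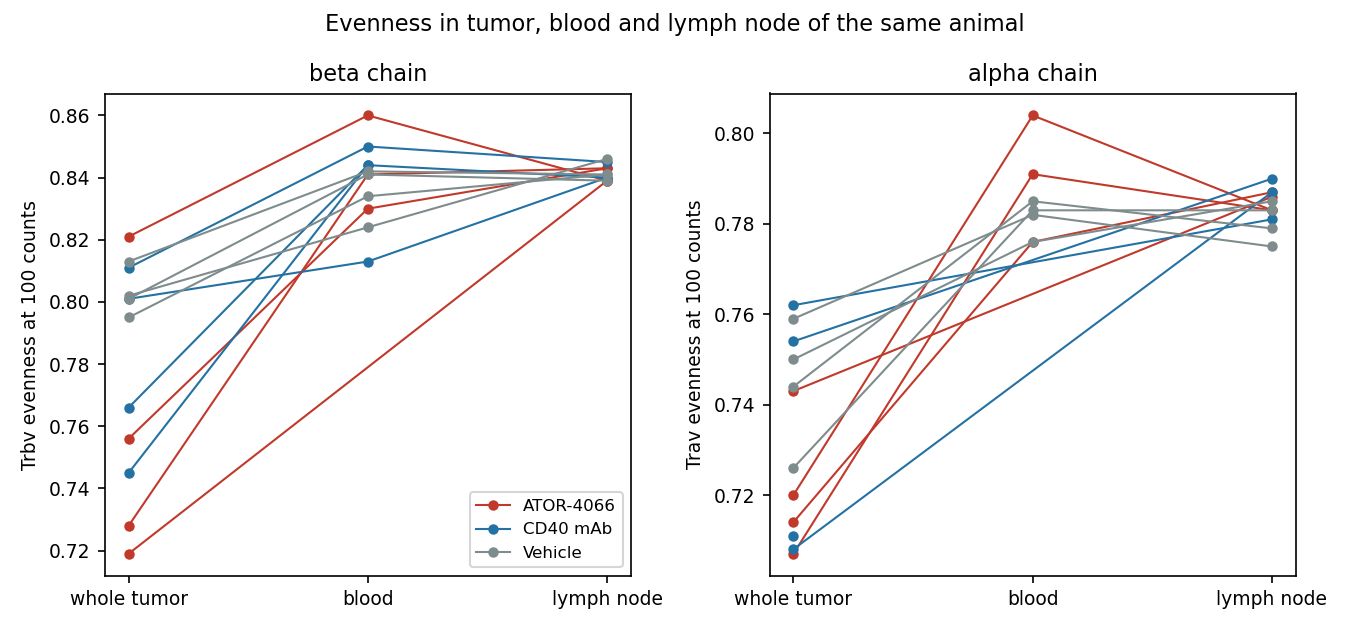
Evenness at 100 counts in tumor, blood and lymph node of the same animal number (lines), for Trbv and Trav, coloured by treatment. In each of the 11 animals with tumor and lymph node libraries the tumor point is the lower, for both chains.

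Sorted ATOR-4066 cells held more receptor RNA. Summed over Trbv segments and scaled by TMM library size, the level was 146, 264 and 115 CPM in ATOR-4066 6, 9 and 10, 38.0, 19.9 and 18.0 CPM in CD40 mAb 6, 7 and 10, and 47.6, 55.9, 40.0 and 30 CPM in Vehicle 6, 7, 9 and 10. The Trav sum was 94.4, 198 and 89.7 CPM with ATOR-4066, 26.1, 20.9 and 16.1 CPM with CD40 mAb, and 49.9, 38.2, 35.8 and 24.5 CPM with Vehicle. Every ATOR-4066 library was above every CD40 mAb and Vehicle library in both chains. In bulk samples a change in the number of T cells and a change in receptor RNA per T cell cannot be told apart.

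By segment, 96 of the 165 passed the filter on low counts in sorted cells (21 Trbv and 75 Trav). With edgeR's quasi-likelihood test and Benjamini-Hochberg adjustment over all 16667 genes tested, 8 rose in ATOR-4066 against Vehicle and none fell (7 Trbv and 1 Trav). For comparison, 6.76 percent of all genes tested rose in that comparison and 11.9 percent changed in either direction. The median log2 change was 1.33 for the Trbv segments that passed the filter, 19 of 21 of them positive, 1.41 for the Trav segments and -0.02 for all genes.

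The 7 called beta segments included 2 of the Trbv13 family, Trbv13-1 and Trbv13-2. Trbv15 had 397, 1258 and 289 counts in ATOR-4066 6, 9 and 10, 101, 47 and 11 in CD40 mAb 6, 7 and 10, and 76, 33, 60 and 76 in Vehicle 6, 7, 9 and 10. Its level was 15.5 ± 12.7 CPM with ATOR-4066 (n = 3) and 1.51 ± 0.379 CPM with Vehicle (n = 4), with a log2 change of 3.35 ± 0.66 (SE, edgeR, adjusted p = 0.0151). Every ATOR-4066 library was above every Vehicle library.

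Trbv3 had 753, 1066 and 471 counts with ATOR-4066, 131, 26 and 36 with CD40 mAb, and 81, 127, 49 and 136 with Vehicle, in the same order of replicates. The level of Trbv3 was 18.3 ± 7.31 CPM with ATOR-4066 and 2.63 ± 1.44 CPM with Vehicle, a log2 change of 2.80 ± 0.59 (SE, edgeR adjusted p = 0.0187). Again the groups did not overlap. Trbv13-2 had 434, 857 and 484 counts with ATOR-4066, 165, 42 and 61 with CD40 mAb, and 182, 115, 62 and 125 with Vehicle. Its log2 change was 2.20 ± 0.48 (SE, edgeR adjusted p = 0.0193), with no overlap of ATOR-4066 and Vehicle counts.

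The other segments that rose against Vehicle were Trbv26 (log2 change 3.46, edgeR adjusted p = 0.0293), Trbv12-2 (2.61, 0.0304), Trbv13-1 (2.26, 0.0386), Trbv2 (3.56, 0.0437) and Trav6d-5 (edgeR adjusted p = 0.0480). Trav6d-5 had 20, 35 and 7 counts in ATOR-4066 6, 9 and 10 and 0 of 6026 Trav counts over the Vehicle libraries, which allows a share of up to 0.0498 percent. Single libraries weighed on some of them. Trbv26 had 764, 1635 and 91 counts in ATOR-4066 6, 9 and 10 and 31 to 157 in Vehicle, and Trbv13-1 had 1040, 272 and 1123 counts with ATOR-4066 and 79 to 385 with Vehicle, so that both overlapped. Without Vehicle 10 only 1 segment was called, without ATOR-4066 6, the library with globin RNA, it was 2, without Vehicle 6 it was 3, and without ATOR-4066 9, the library with B cell RNA, or without Vehicle 9 it was 4.

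ATOR-4066 against CD40 mAb gave 13 segments higher and none lower (10 Trbv and 3 Trav), where 5.27 percent of all genes rose and 8.23 percent changed in either direction. The median log2 change was 2.72 for Trbv, positive in 20 of 21. The smallest p were those of Trbv19, which averaged 8.07 ± 3.24 CPM with ATOR-4066 and 1.18 ± 0.598 CPM with CD40 mAb (n = 3 each; log2 change 2.77 ± 0.54 SE, edgeR adjusted p = 0.0197), Trbv3 (3.49 ± 0.68, 0.0208) and Trbv13-2 (2.63 ± 0.54, 0.0221). Trbv19 had 176, 423 and 422 counts with ATOR-4066 and 74, 23 and 40 with CD40 mAb, which did not overlap. Without CD40 mAb 10 no segment was called, without CD40 mAb 7 it was 2, without ATOR-4066 9 it was 5, and without CD40 mAb 6 or without ATOR-4066 6 it was 7. The pair fitted alone, with 3 libraries a group, called none.

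CD40 mAb against Vehicle gave no called segment with edgeR, 11 at an unadjusted p under 0.05 and 7 with DESeq2, where 1.09 percent of all genes were called. The Trbv median was -0.80, with 1 of 21 positive.

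The rest of the receptor moved with the segments in the sorted cells. Of 7 genes for constant regions and CD3 chains, 6 rose in ATOR-4066 against Vehicle, and all 3 coreceptor genes, Cd4, Cd8a and Cd8b1, rose, where 6.76 percent of all genes rose. Cd3e had 245, 428 and 172 CPM in ATOR-4066 6, 9 and 10 and 67.4 to 99.8 CPM in the 4 Vehicle libraries (log2 change 1.81, edgeR adjusted p = 0.0108). Trac, the alpha constant region, averaged 367 ± 180 CPM with ATOR-4066 and 108 ± 30 CPM with Vehicle (1.76, 0.0143), and Trbc2, a beta constant region, 328 and 93.7 CPM (1.81, 0.0108). Trbc1, the other beta constant region, averaged 187 CPM with ATOR-4066 and 104 CPM with Vehicle, a log2 change of 0.84 that was not called (adjusted p = 0.122).

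Cd4 had a larger change than Cd8a against Vehicle, with log2 changes of 2.33 (edgeR adjusted p = 0.0108) and 1.52 (0.0403). Cd8b1, the other CD8 gene, had 433, 564 and 111 CPM in ATOR-4066 6, 9 and 10 and 48.1 to 84.4 CPM with Vehicle. In the same order Cd4 had 301, 523 and 333 CPM, against 55.4 to 114 CPM with Vehicle. Differences between the coreceptor genes were not tested. Trdc, the delta constant region that marks gamma-delta T cells, averaged 20.6 CPM with ATOR-4066 and 26.4 CPM with Vehicle (-0.35, adjusted p = 0.531), and none of the 4 tested members of the gamma-delta list was called. Against CD40 mAb all 7 constant and CD3 genes and all 3 coreceptor genes rose with ATOR-4066, where 5.27 percent of all genes rose. In CD40 mAb against Vehicle none of them was called with edgeR.

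Marker genes of other cells were read in the same libraries. Against Vehicle, 1 of 4 B cell markers rose and 1 of 5 macrophage and monocyte markers fell with ATOR-4066, and none of 4 natural killer cell markers and 3 erythroid markers was called (edgeR), where 11.9 percent of all genes changed in either direction. The summed level of 4 B cell markers was 15.2 to 265 CPM with ATOR-4066, 10.4 to 17.3 CPM with CD40 mAb and 13.2 to 16.2 CPM with Vehicle, the highest in ATOR-4066 9. That of 5 macrophage and monocyte markers was 1288 to 5873 CPM with ATOR-4066, 8858 to 17858 CPM with CD40 mAb and 5718 to 7630 CPM with Vehicle. Of the 4 markers of tumor epithelium, 2 rose in ATOR-4066 against Vehicle, with a sum of 6.12 to 13.3 CPM with ATOR-4066 and 2.29 to 3.89 CPM with Vehicle. The sum of the 4 natural killer cell markers was 141 to 247 CPM with ATOR-4066, 125 to 400 CPM with CD40 mAb and 270 to 387 CPM with Vehicle, lower in every ATOR-4066 library than in every Vehicle library. That of the 3 erythroid markers was 19.1 to 3670 CPM with ATOR-4066, highest in ATOR-4066 6, 60.7 to 96.8 CPM with CD40 mAb and 47 to 215 CPM with Vehicle. Of 4 neutrophil markers 2 passed the filter and S100a8 rose, with a mean of 1.45 CPM with ATOR-4066 and 0.0332 CPM with Vehicle, while Ly6g, which the sort selected against, was at most 0.078 CPM in any sorted library. The part of these cells in the result was not tested.

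Share within the chain asks whether a segment took another part of the receptor RNA, apart from how much of it there was. It was tested in the same fit with the chain's total count as the offset of each segment. Genes other than segments kept their TMM scaling in this fit. The percentages of all genes given beside share calls therefore rest almost wholly on changes in level. In sorted ATOR-4066 against Vehicle 1 of 96 segments was called, Trbv16, and 8 had an unadjusted p under 0.05; of all 16667 genes 5.08 percent were called lower and 11.8 percent in either direction. The Trbv median log2 share change was -0.42, positive in 8 of 21.

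Trbv16 took 1.76, 1.74 and 3.49 percent of the Trbv counts in ATOR-4066 6, 9 and 10, 10.9, 7.18 and 2.89 percent in CD40 mAb 6, 7 and 10, and 14.8, 8.24, 14.5 and 5.91 percent in Vehicle 6, 7, 9 and 10. Every ATOR-4066 library was below every Vehicle library, and CD40 mAb libraries spanned both. The mean share was 2.33 ± 1.01 percent with ATOR-4066 (n = 3) and 10.9 ± 4.47 percent with Vehicle (n = 4), a log2 change of -2.22 ± 0.53 (SE, edgeR adjusted p = 0.0252). In lymph node the share was 5.78 to 7.15 percent, between these means, and the lowest Vehicle library lay in that range.

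The level of Trbv16 RNA itself was not called. Its counts were 104, 192 and 174 with ATOR-4066, 172, 56 and 18 with CD40 mAb, and 333, 141, 251 and 68 with Vehicle, and its level was 3.73 ± 1.05 CPM with ATOR-4066 and 4.80 ± 2.25 CPM with Vehicle (log2 change -0.37 ± 0.63 SE, edgeR adjusted p = 0.751). The lower share thus came with a higher count of the other Trbv segments. The call was lost without ATOR-4066 6, ATOR-4066 9, Vehicle 6 or Vehicle 9 (adjusted p = 0.0636 to 0.0953), with log2 changes of -2.06 to -2.04. It was also lost with the beta constant genes Trbc1 and Trbc2 as the offset (-1.67, edgeR adjusted p = 0.0622) and with the replicate block (-2.11, edgeR adjusted p = 0.0823). In whole tumor Trbv16 took 7.26, 2.66, 5.56 and 3.74 percent in ATOR-4066 1, 2, 4 and 5 and 5.15, 3.83, 6.08 and 12.2 percent in Vehicle 1, 2, 4 and 5, which overlapped (-0.52 ± 0.50 SE, edgeR adjusted p = 0.546).

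**Figure D4:**
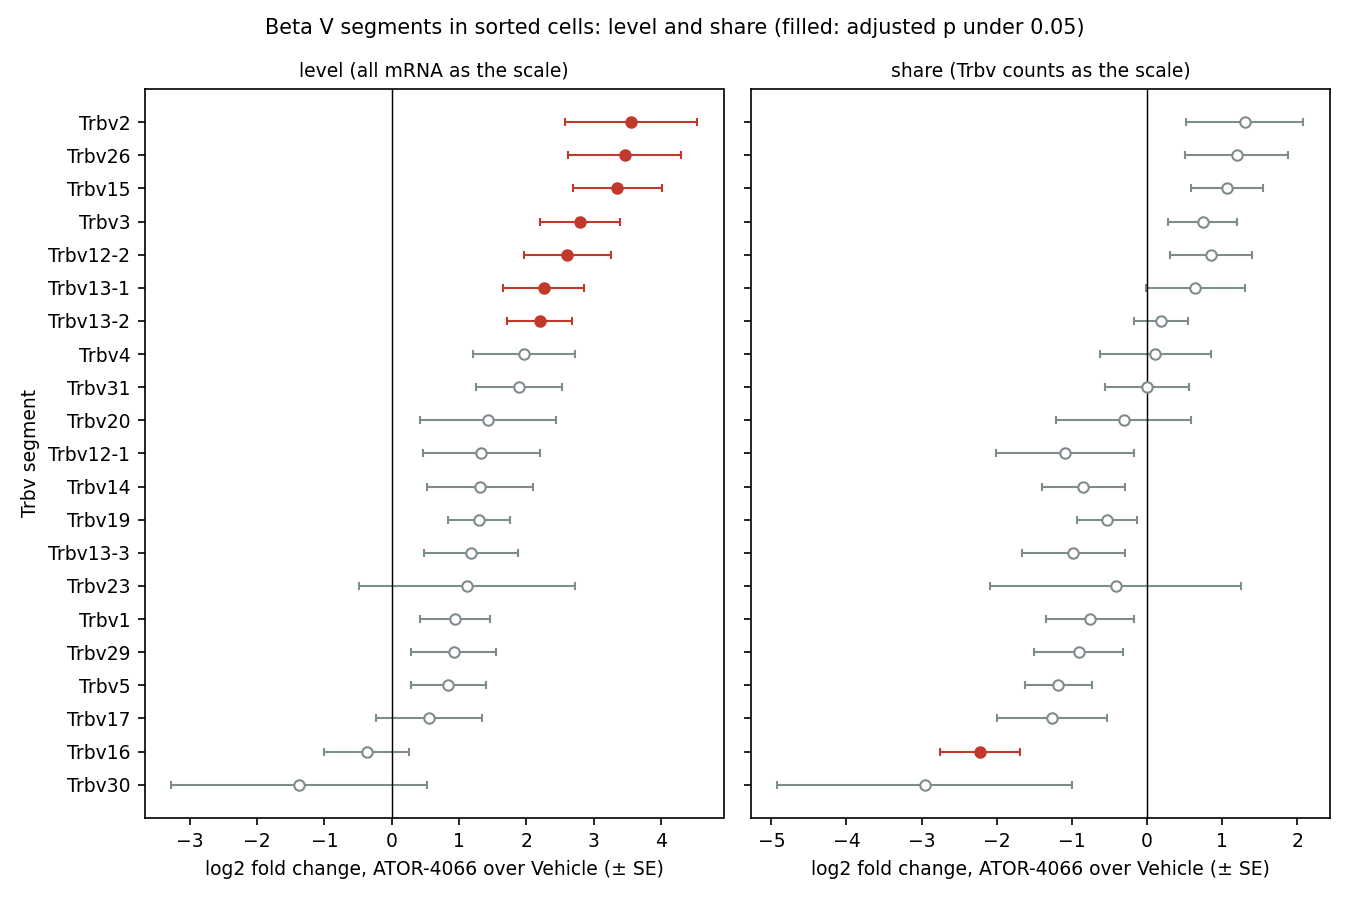
Log2 change with SE of each of 21 Trbv segments in sorted ATOR-4066 over Vehicle cells, for the level (left) and the share within the chain (right), with filled points at an adjusted p under 0.05. The levels of 19 segments are above 0 and 7 are filled, whereas the shares scatter around 0 and only Trbv16 is filled, at -2.22.

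Trbv5 had a similar arrangement without a call. It took 6.59, 5.56 and 6.58 percent in ATOR-4066 6, 9 and 10, 12.9, 11.9 and 2.57 percent in CD40 mAb 6, 7 and 10, and 10.5, 13.0, 15.7 and 17.2 percent in Vehicle 6, 7, 9 and 10. ATOR-4066 lay below Vehicle in every library, with a log2 change of -1.18 ± 0.44 (SE, edgeR adjusted p = 0.105). In whole tumor it took 1.89, 2.80, 8.59 and 4.81 percent in ATOR-4066 1, 2, 4 and 5 and 8.82, 7.67, 8.11 and 8.75 percent in Vehicle 1, 2, 4 and 5. There 3 of 4 ATOR-4066 libraries were below all Vehicle libraries and the groups overlapped (-0.86 ± 0.54 SE, edgeR adjusted p = 0.343).

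**Figure D5:**
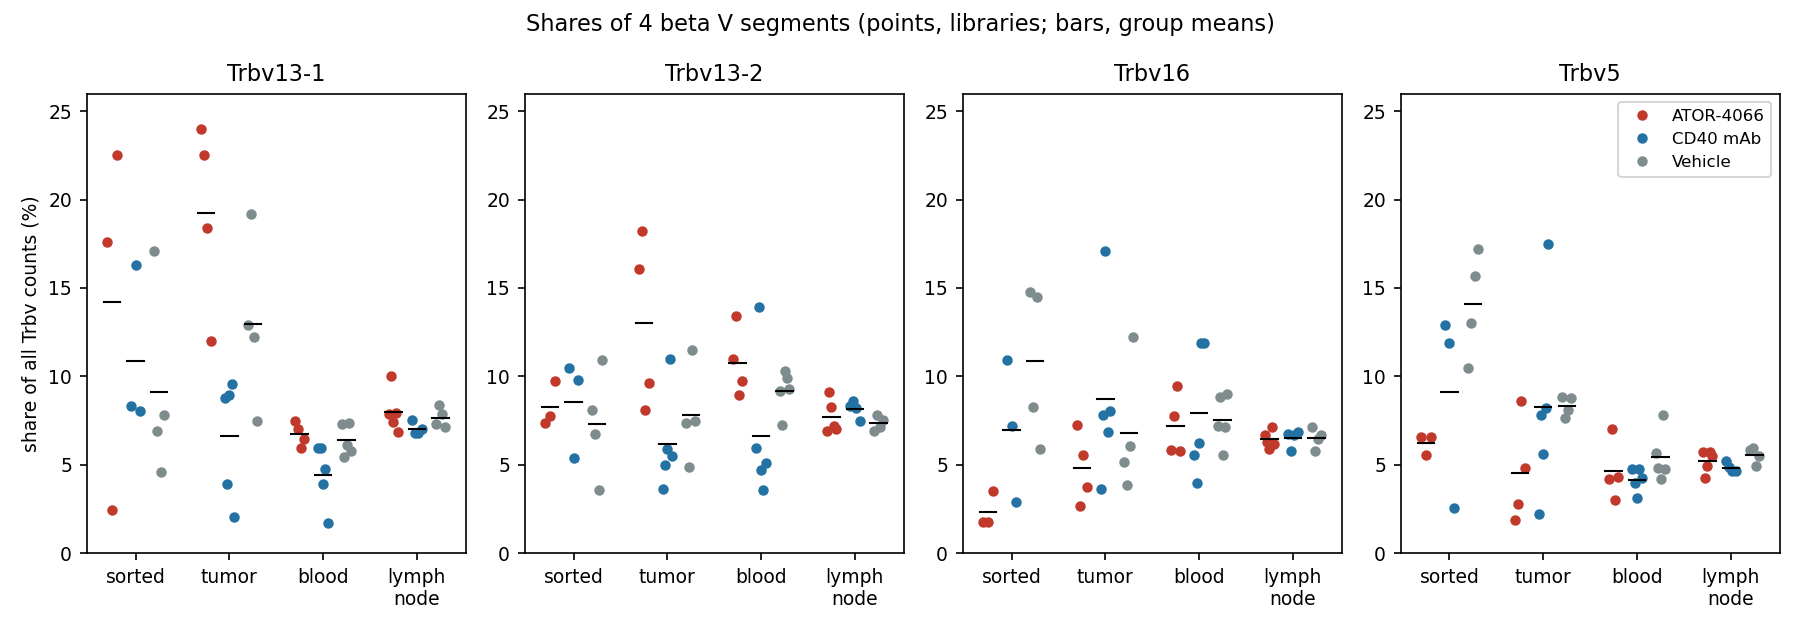
Share of the Trbv counts, in percent, of Trbv13-1, Trbv13-2, Trbv16 and Trbv5 by material and treatment, with a point per library and a bar at the mean. Libraries under 100 counts are included. Trbv16 in sorted cells is at 1.74 to 3.49 percent with ATOR-4066 and 5.91 to 14.8 percent with Vehicle, and Trbv13-1 in tumor at 12 to 24 percent with ATOR-4066 and 2.03 to 9.59 percent with CD40 mAb.

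No other comparison gave a called share. In sorted cells CD40 mAb against Vehicle had 9 segments at an unadjusted p under 0.05, where 1.09 percent of all genes were called. ATOR-4066 against CD40 mAb had 11, where 5.09 percent of all genes were called higher and 2.90 percent lower. By the rule for naming, Trav16n was the uncalled segment without overlap in CD40 mAb against Vehicle, with 2.41 percent with CD40 mAb and 0.404 percent with Vehicle (edgeR adjusted p = 0.360). In ATOR-4066 against CD40 mAb, Trav6-5 averaged 6.52 ± 10 percent with ATOR-4066 and 0.0923 percent with CD40 mAb (adjusted p = 0.0905), and its mean was set by the 18.1 percent of ATOR-4066 9. Trbv3 took 12.8, 9.65 and 9.45 percent with ATOR-4066 and 8.30, 3.33 and 5.79 percent with CD40 mAb (edgeR adjusted p = 0.314).

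In whole tumor 25 segments passed the filter (19 Trbv and 6 Trav), and none was called by level or share in any comparison with edgeR, nor by level with DESeq2. At an unadjusted p under 0.05 there were 0, 1 and 3 by level and 1, 2 and 5 by share, for ATOR-4066 over Vehicle, CD40 mAb over Vehicle and ATOR-4066 over CD40 mAb, where 1.32, 0 and 0.0325 percent of all genes were called. The summed Trbv level was 6.38, 13.8, 18.3 and 7.38 CPM in ATOR-4066 1, 2, 4 and 5, 2.31, 5.19, 7.22, 1.54 and 69.0 CPM in CD40 mAb 1 to 5, and 9.14, 5.62, 2.95 and 5.16 CPM in Vehicle 1, 2, 4 and 5. The groups overlapped, and CD40 mAb 5 was far above all others. Without CD40 mAb 5, 2 segments were called by level in ATOR-4066 against CD40 mAb. None of the constant, CD3 and coreceptor genes was called in tumor.

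Trbv13-1 was the most frequent leading segment of whole tumor. It took 24, 22.5, 18.4 and 12 percent in ATOR-4066 1, 2, 4 and 5, 8.76, 3.91, 8.95, 9.59 and 2.03 percent in CD40 mAb 1 to 5, and 12.9, 19.2, 12.2 and 7.50 percent in Vehicle 1, 2, 4 and 5. Every ATOR-4066 tumor was above every CD40 mAb tumor, with a log2 change of 1.62 ± 0.46 (SE, unadjusted p = 0.00374, edgeR adjusted p = 0.263), and ATOR-4066 overlapped with Vehicle (0.57 ± 0.46 SE, adjusted p = 0.463). The library labelled tumor ATOR-4066 3, not used, held 9.26 percent, below the highest CD40 mAb value. In sorted cells Trbv13-1 took 17.6, 2.46 and 22.5 percent in ATOR-4066 6, 9 and 10, 8.30, 16.3 and 8.04 percent in CD40 mAb 6, 7 and 10, and 17.1, 6.90, 4.57 and 7.82 percent in Vehicle 6, 7, 9 and 10, with full overlap.

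Its relatives varied by animal. In tumor Trbv13-2 took 16.1, 18.2, 8.10 and 9.63 percent with ATOR-4066, 3.65, 4.98, 5.88, 11 and 5.47 percent with CD40 mAb, and 7.35, 4.88, 11.5 and 7.50 percent with Vehicle (ATOR-4066 against CD40 mAb, edgeR adjusted p = 0.327). The 11 percent is of the 73 Trbv counts of CD40 mAb 4. Trbv13-3 took 0.980 to 2.21 percent with ATOR-4066, 23.4, 1.78, 3.58, 4.11 and 11.7 percent with CD40 mAb, and 1.25 to 2.70 percent with Vehicle. CD40 mAb 1 and CD40 mAb 5 were the high libraries, and the log2 change of CD40 mAb against Vehicle was 2.32 ± 0.68 (SE, unadjusted p = 0.00485, edgeR adjusted p = 0.412). Its 23.4 percent in CD40 mAb 1 rests on 137 Trbv counts (95% Wilson interval 17.1 to 31.1). Together the family took 42.3, 41.7, 27.9 and 23.5 percent with ATOR-4066, 35.8, 10.7, 18.4, 24.7 and 19.2 percent with CD40 mAb, and 21.9, 25.8, 26.4 and 16.2 percent with Vehicle, against 19.7 to 23.6 percent in lymph node.

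In lymph node 111 segments passed the filter and none was called by level or share, with edgeR at an adjusted p or, by level, with DESeq2. Unadjusted, 2, 4 and 10 were under 0.05 by level and 3, 5 and 4 by share in the same order of comparisons, where 0, 0.0643 and 0.0161 percent of all genes were called. The summed Trbv level was 115 to 195 CPM, and the treatments overlapped. The few segments whose shares did not overlap had small differences: Trav7-3 took 1.49 percent with ATOR-4066 and 1.18 percent with Vehicle (edgeR adjusted p = 0.557), and Trav10 1.62 percent with CD40 mAb and 2.31 percent with Vehicle (log2 change -0.51 ± 0.20 SE, adjusted p = 0.158). Trav9n-3 took 2.16 percent with ATOR-4066 and 0.223 percent with CD40 mAb, but summed with its identical copy Trav9d-3 the ranges were 1.69 to 2.73 percent with ATOR-4066 and 1.78 to 2.53 percent with CD40 mAb, which overlapped.

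In blood 18 Trbv segments and no Trav segment passed the filter, and none was called by either measure with edgeR or, by level, with DESeq2. Unadjusted, 0, 0 and 2 were under 0.05 by each measure, where 0.435, 34.6 and 13.1 percent of all genes were called. The blood libraries held 84 to 739 Trbv counts, which limits what the test can show there. Against CD40 mAb, Trbv4 took 4.55, 4.93, 5.47 and 5.04 percent in ATOR-4066 1, 3, 4 and 5 and 1.58, 0.990, 0, 3.57 and 4.24 percent in CD40 mAb 1 to 5, which did not overlap (edgeR adjusted p = 0.103). The 0 was of 128 Trbv counts, which allows a share of up to 2.34 percent. The second such segment was Trbv13-1, with 6.74 percent with ATOR-4066 and 4.45 percent with CD40 mAb (adjusted p = 0.259). TMM factors in blood ranged from 0.314 to 2.35, so levels there lean on the scaling, while shares do not.

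The rest of the receptor list gave no call in either of these materials. None of the 7 constant and CD3 genes and none of the 3 coreceptor genes was called in lymph node or blood, with list medians of 0.11 in lymph node and 0.01 in blood for ATOR-4066 against Vehicle and of -0.17 and 0.07 for CD40 mAb against Vehicle (log2). Of the recombination genes only Rag1, a subunit of the enzyme that cuts the V segments of T and B cells, passed the filter in blood. It averaged 0.600 ± 0.286 CPM with CD40 mAb (n = 5) and 0.180 ± 0.157 CPM with Vehicle (n = 5), a log2 change of 1.74 ± 0.55 (SE, edgeR adjusted p = 0.0225), where 34.6 percent of all genes were called in either direction. The CD40 mAb values of Rag1 were 0.213 to 0.999 CPM and the Vehicle values 0.061 to 0.452 CPM, which overlapped. In the same blood libraries 3 of 4 B cell markers fell with CD40 mAb against Vehicle, with sums of 79.4 to 204 CPM with CD40 mAb and 193 to 246 CPM with Vehicle. All 3 erythroid markers rose, with sums of 560966 to 1848329 CPM with CD40 mAb and 195667 to 300925 CPM with Vehicle on the TMM scale, on which a sum can exceed the library total. All 4 neutrophil markers rose too, with sums of 170 to 832 CPM with CD40 mAb and 82.7 to 157 CPM with Vehicle, and the part of these cells in the result was not tested.

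Some segments belong to T cells of fixed receptor use. Invariant natural killer T cells of mice carry Trav11 (or its copy Trav11d) with Trbv13-2, Trbv29 or Trbv1. Trav11 and Trav11d together took 0.461 ± 0.421 percent with ATOR-4066, 0.246 percent with CD40 mAb and 0.233 percent with Vehicle in sorted cells, and 0.764 ± 0.606, 0.335 and 0.142 percent in tumor. In blood they had 0 of 383 Trav counts with ATOR-4066, 0 of 245 with CD40 mAb and 7 of 984 with Vehicle, and a count of 0 allows a share of up to 0.783 and 1.22 percent in the first 2 groups. Their tumor values rest on 8, 6 and 1 counts, and the lowest ATOR-4066 tumor, with 0.190 percent, was below the highest Vehicle tumor, with 0.568 percent.

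Trav1, the alpha segment of mucosal-associated invariant T cells, took 0.283 percent with ATOR-4066, 0.277 percent with CD40 mAb and 0.767 percent with Vehicle in sorted cells, and 0.490, 0.414 and 0.506 percent in lymph node. In tumor Trav1 took 0.163, 0.637 and 1.33 percent, from 2, 6 and 16 counts, and in blood 0.937, 0.664 and 0.0676 percent, from 2, 2 and 1 counts, in the same order of treatments. Trbv29 took 2.29 ± 0.270 percent with ATOR-4066, 6.62 percent with CD40 mAb and 4.28 percent with Vehicle in sorted cells, and 2.34, 3.09 and 5.32 percent in tumor. Trbv1 took 6.35, 5.89 and 5.95 percent in lymph node. None of these segments was called by share where it was tested. Trav11, Trav11d and Trav1 did not pass the filter in tumor or blood, nor Trav11 in sorted cells. Their shares were therefore not tested there.

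Receptor RNA also differed in its balance of chains. There were 2.25 to 2.68 Trbv counts per Trav count in lymph node and 1.95 to 3.94 in blood, against 1.29 to 1.54 in sorted ATOR-4066 cells, 0.951 to 1.46 in sorted CD40 mAb cells and 0.953 to 1.46 in sorted Vehicle cells. In whole tumor the ratio was 1.57 to 1.95 with ATOR-4066, 1.14 to 2.14 with CD40 mAb and 0.841 to 1.31 with Vehicle, so that ATOR-4066 lay above Vehicle in every library. Every sorted and tumor library was below the lymph node range. Of the counts of both beta constant regions, Trbc1 took 35.5 to 37.2 percent with ATOR-4066, 38.8 to 54.2 percent with CD40 mAb and 46.3 to 62.7 percent with Vehicle in sorted cells, and 31.2 to 37.9 percent in lymph node. In whole tumor Trbc1 took 27.4 to 35.8 percent with ATOR-4066, 31.1 to 49.4 with CD40 mAb and 32.3 to 49.1 with Vehicle, which overlapped. These ratios were not tested, and the 2 constant regions are similar in sequence.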

How the data were processed

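RNA sequencing libraries of sorted tumor cells, tumor, lymph node and blood were grouped by the treatment and tissue in their labels. The authors' deposited table holds estimated counts per gene, and its name refers to salmon. STAR and build GRCm38 are listed per the submitters' processing notes. Per the labels' protocols, polyA RNA went through a stranded mRNA preparation. The sources used here do not give the quantification settings or how reads of near-identical segments were divided. Estimated counts were rounded (11 percent of values were not whole).

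The segments, gene lists and tests were chosen with earlier results of these data known. Segments were annotated with GENCODE vM21, which holds 52029 of the 57010 identifiers, with Biopython 1.88. In a given material all libraries entered a single model of the 3 treatments (R 4.3.3, edgeR 4.0.16, limma 3.58.1, filterByExpr with count minimum 10 and total 15, TMM, robust quasi-likelihood F test), once for the level and once with the log of the chain total as the offset of each segment, which tests its share. Benjamini-Hochberg adjustment ran over all genes tested and calls were made under 0.05. The fits were tested on simulated counts. Errors are SD of levels or shares and SE of log2 changes. Evenness was computed for libraries with at least 100 counts of the chain (numpy 2.4.6, scipy 1.17.1, Python 3.11.15), and thinning used 200 draws per library. Where a library depth is given as counts, precision is limited by counting, and Wilson intervals are at 95 percent.

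The segments named were the 6 of largest share per length in Vehicle lymph node for each chain, the 3 of smallest p in each direction among those called, the leading segment of each library, up to 2 without overlap where none was called, and fixed segments of invariant T cells. Others are named after their values were seen: Trbv5, the remaining Trbv13 members and the remaining called segments. Titles number the samples, and the tests weigh differences between treatments against the spread between samples of a treatment. Alternatives were DESeq2 1.42.0, RLE factors, no filter, pair fitted alone, replicate block, a constant-gene offset, families, functional segments, identical segments summed, another index, thinning, the left-out libraries kept, and each library left out. The sum of identical segments was added after the data had been seen.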

Additional observations from a re-analysis of the deposited data

Results flagged for a closer look

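Of 114 groups of 4 to 10 libraries looked at, 11 held a library far from the others by Dixon's criterion at 95 percent. For independent, normally spread values chance alone marks about 1 group in 20. The groups here share libraries, and some hold a single value above 0, so the 11 cannot be set against that rate. In whole tumor, CD40 mAb 5 was such a library for the summed Trav level (32.3 CPM), the summed Trbv level (69.0 CPM) and the Trbv counts per Trav count (2.14). Among Vehicle tumors, Vehicle 2 had the highest leading Trbv share, 19.2 percent on Trbv13-1, and 1 library held the single Trav11 or Trav11d count of the group, a share of 0.568 percent. In lymph node, CD40 mAb 2 had the lowest Trav evenness of its group, 0.871. Vehicle 4 was apart in lymph node for its leading Trav segment, 4.52 percent, and for Trav1, 0.747 percent. In blood, CD40 mAb 2 held 13.9 percent of Trbv13-2 in 101 Trbv counts, Vehicle 3 had a Trav evenness of 0.748 in 119 counts, and Vehicle 1 held 0.338 percent of Trav1.

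The library labelled tumor ATOR-4066 3, which entered no comparison, held 40.0 CPM of Trav and 79.2 CPM of Trbv, against at most 8.19 and 9.42 CPM in the Vehicle tumor libraries, without TMM scaling.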

How the results depend on the processing

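Counts of called segments in sorted cells depended on the setting. By level, the 8 of ATOR-4066 against Vehicle became 17 with DESeq2 and 1 to 9 with each library left out. The 13 of ATOR-4066 against CD40 mAb became 29 with DESeq2, 0 with the pair fitted alone and 0 to 13 with each library left out. The 0 of CD40 mAb against Vehicle became 7 with DESeq2, 1 with the pair alone and 0 to 1 with a library left out. By share, the 1 of ATOR-4066 against Vehicle became 2 with the pair alone and 0 to 3 with a library left out, CD40 mAb against Vehicle 1 with the pair alone, and ATOR-4066 against CD40 mAb 2 by families and 0 to 2 with a library left out. The Trbv16 share change of -2.22 was -1.67 with a constant-gene offset (adjusted p = 0.0622), and -2.63 to -2.04 with a library left out. The cause was not tested.

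With the replicate block, 4 segments were called by level in ATOR-4066 against Vehicle and 4 against CD40 mAb in sorted cells, 0 by share, and Trbv16 changed by -2.11 (adjusted p = 0.0823); no other call changed. Same-numbered samples deviated together (correlation over 0.1) in 1 of 8 pairs in sorted cells and 2 of 12 in tumor. In lymph node it was 4 of 11 and in blood 2 of 13. Over the materials, the median correlation was -0.08 to 0.00 for same-numbered pairs and -0.01 to 0.02 for other pairs. So few pairs cannot decide whether same-numbered samples of different treatments belong together.

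In tumor, ATOR-4066 against Vehicle gave 2 by level with the pair alone, and ATOR-4066 against CD40 mAb 0 to 2 with a library left out (2 without CD40 mAb 5). In blood, CD40 mAb against Vehicle gave 2 by level and 3 by share without the filter, 1 by share by families, and 0 to 1 by each with a library left out, as did ATOR-4066 against CD40 mAb by share (1 without CD40 mAb 2 in each). With the left-out library kept, evenness differences from Vehicle in lymph node became 0.017 and 0.016 for Trav and 0.015 and 0.015 for Trbv, with ATOR-4066 and CD40 mAb in that order. In blood, ATOR-4066 minus Vehicle for Trav was 9.944 as an inverse Simpson number, on another scale, and CD40 mAb minus Vehicle for Trbv was 0.001 when thinned. The other 174 evenness differences with a library left out moved by less than the pooled SD. Of the 156 unchanged under other settings, 21 were inverse Simpson numbers, which did not reverse beyond their own pooled SD. The rest of the 156 moved by less than the pooled SD of evenness. Many tumor and blood libraries held few counts of a chain, which limits what evenness can show there.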
